A study of Mus musculus with 9 samples.

Results

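BMP and TGF-beta signalling genes were followed across 3 populations of endothelial cells that were sorted by flow cytometry from embryonic mouse hearts, with atria and aortic region removed. The set holds 47 genes of the 41214 features of the table. They were chosen by name, with earlier results of these data known, as ligands, receptors, Smads, Id genes and antagonists of these pathways, plus Tgfbi. All 47 were found. Of these, 44 passed the filter for low counts and were tested. The other three, Bmp5, Bmp10 and Bmpr1b, had at most 26, 20 and 16 counts in any library.

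The 9 libraries were 3 replicates of each population at E17.5. All embryos carried Nes-Gfp (Tg/0) together with Nes-CreER (Tg/0) and R26 (tom/+), and all received 0.1 ug tamoxifen at E15.5, so that Gfp and the Cre that turns on Tomato were both driven by Nes sequences. All cells were viable, Ter119-negative, CD45-negative, CD31-positive and GFP-positive. The arterial population (intramyocardial arteries and capillaries) was in addition endomucin-low and Tomato-positive, the venous population (subepicardial veins) was endomucin-low, Tomato-negative and GFP-low, and the endocardial gate as written adds no endomucin or Tomato condition. Arterial and venous libraries together are called coronary here. The labels do not say whether a library held pooled embryos or whether replicates came from separate litters, so the spread behind each p-value is that of these libraries and may be technical. Library totals ran from 12750475 to 19474299 counts. Endocardial replicate 1 stood apart from the other two of its population, with 21021 genes above 0 against 17251 and 17063, and results that change without it are given both ways.

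BMPs, TGF-betas and activins are secreted dimers. A dimer binds type II and type I serine/threonine kinase receptors, and the type I receptor phosphorylates receptor Smads, which enter the nucleus with Smad4. BMPs mostly act through Smad1, Smad5 and Smad9, and TGF-betas and activins through Smad2 and Smad3. In the heart these pathways are known for the formation of the valve cushions from endocardium, and in vessels for the role of the receptors Acvrl1, Bmpr2 and Eng in hereditary vascular disease.

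Levels are in CPM (counts scaled to library size, after TMM normalisation), and values of 3 libraries are given in the order of replicates 1, 2 and 3. Fold changes come from edgeR's quasi-likelihood test with a standard error (SE), and the threshold for a call was an adjusted p (Benjamini-Hochberg, over 17103 genes) under 0.05. The sorts were checked on marker lists. The 8 endocardial markers summed to 156 to 200.2 CPM in the arterial, 220.3 to 278 in the venous and 3962 to 5327 in the endocardial libraries, and the 10 arterial markers to 978 to 1289, 447 to 528 and 434 to 499. Of these 10, 8 were lower and 1 (Bmx) was higher in endocardial than in arterial libraries. The 7 venous markers summed to 686 to 898, 1132 to 1422 and 581 to 1404 CPM, so the sums of venous and endocardial libraries overlapped. These sums include Vwf, which is on the endocardial list too. Vwf had 42.9, 76.8 and 39.6 CPM in the venous and 168, 772 and 640 in the endocardial libraries. Of 6 venous markers tested, 2 were higher and 2 lower in endocardial than in venous libraries, and 2 were called lower in arterial than in venous libraries. The 10 pan-endothelial markers took 5485 to 7443, 5268 to 6723 and 4095 to 5308 CPM, with none at 0. Their levels were not uniform, with 2 called higher and 4 lower in endocardial than in coronary libraries.

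The endocardial libraries differed most. Of the 44 tested members, 12 were higher and 4 lower in endocardial than in coronary libraries and 28 were not called, which is 36.4% called against 13.9% of all genes (6.91% higher and 7.00% lower). The higher genes were the ligand genes Bmp6, Tgfb2, Tgfb3 and Inhba, the receptor genes Bmpr1a, Acvr1 and Tgfbr3, the Smad gene Smad3, Id2, the secreted antagonist and modulator genes Fst and Fstl1, and Tgfbi. The lower genes were Bmp2, Acvr2a, Smad1 and Id1. The median log2 fold change of the members was 0.49, against 0.08 over all genes. Endocardial against arterial libraries alone gave 12 higher and 4 lower, where 11.7% of all genes were called (5.75% higher and 5.92% lower). Endocardial against venous libraries gave 11 higher and 3 lower, where 10.2% were called (4.44% higher and 5.81% lower). Without endocardial replicate 1 the members called were 15 higher and 4 lower against coronary, 15 and 4 against arterial and 12 and 2 against venous libraries. All genes called rose as well in these fits, from 2379 to 2493, from 1996 to 2251 and from 1753 to 1822 in the same order. These comparisons share the endocardial libraries.

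Between the coronary populations 4 of the 44 members were lower in arterial than in venous libraries, none was higher and 40 were not called, against 1.07% of all genes (0.310% higher and 0.760% lower). The 4 were Tgfbi, Inhba, Bmp6 and Bmpr1a. The 12 fibroblast markers were also low in arterial libraries, and summed to 109 to 127 CPM in the arterial, 1404 to 1635 in the venous and 1702 to 2049 in the endocardial libraries. Of the 11 tested, 7 were lower in arterial than in venous libraries and 7 higher in endocardial than in coronary ones. In endocardial against venous libraries, where all 4 members were higher, 6 of the 11 had a negative log2 fold change (median -0.3). The part of fibroblasts in the levels of these members was not tested. The median over the members was -0.14, against 0.03 over all genes. Counted by libraries that did not overlap, 14 members lay lower and 1 (Tgfbr2) higher in arterial than in venous libraries, where 8.52% and 8.78% of all genes did so. In the endocardial to coronary comparison 12 members lay above and 5 below without overlap, against 8.56% and 9.08% of all genes (17.6% in either direction). The direction of every call of these 2 comparisons was the same within each of the 3 replicate numbers. For all of these calls but that of Fst, the lack of overlap fixes this in advance, so it adds nothing to them.

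**Figure D1:**
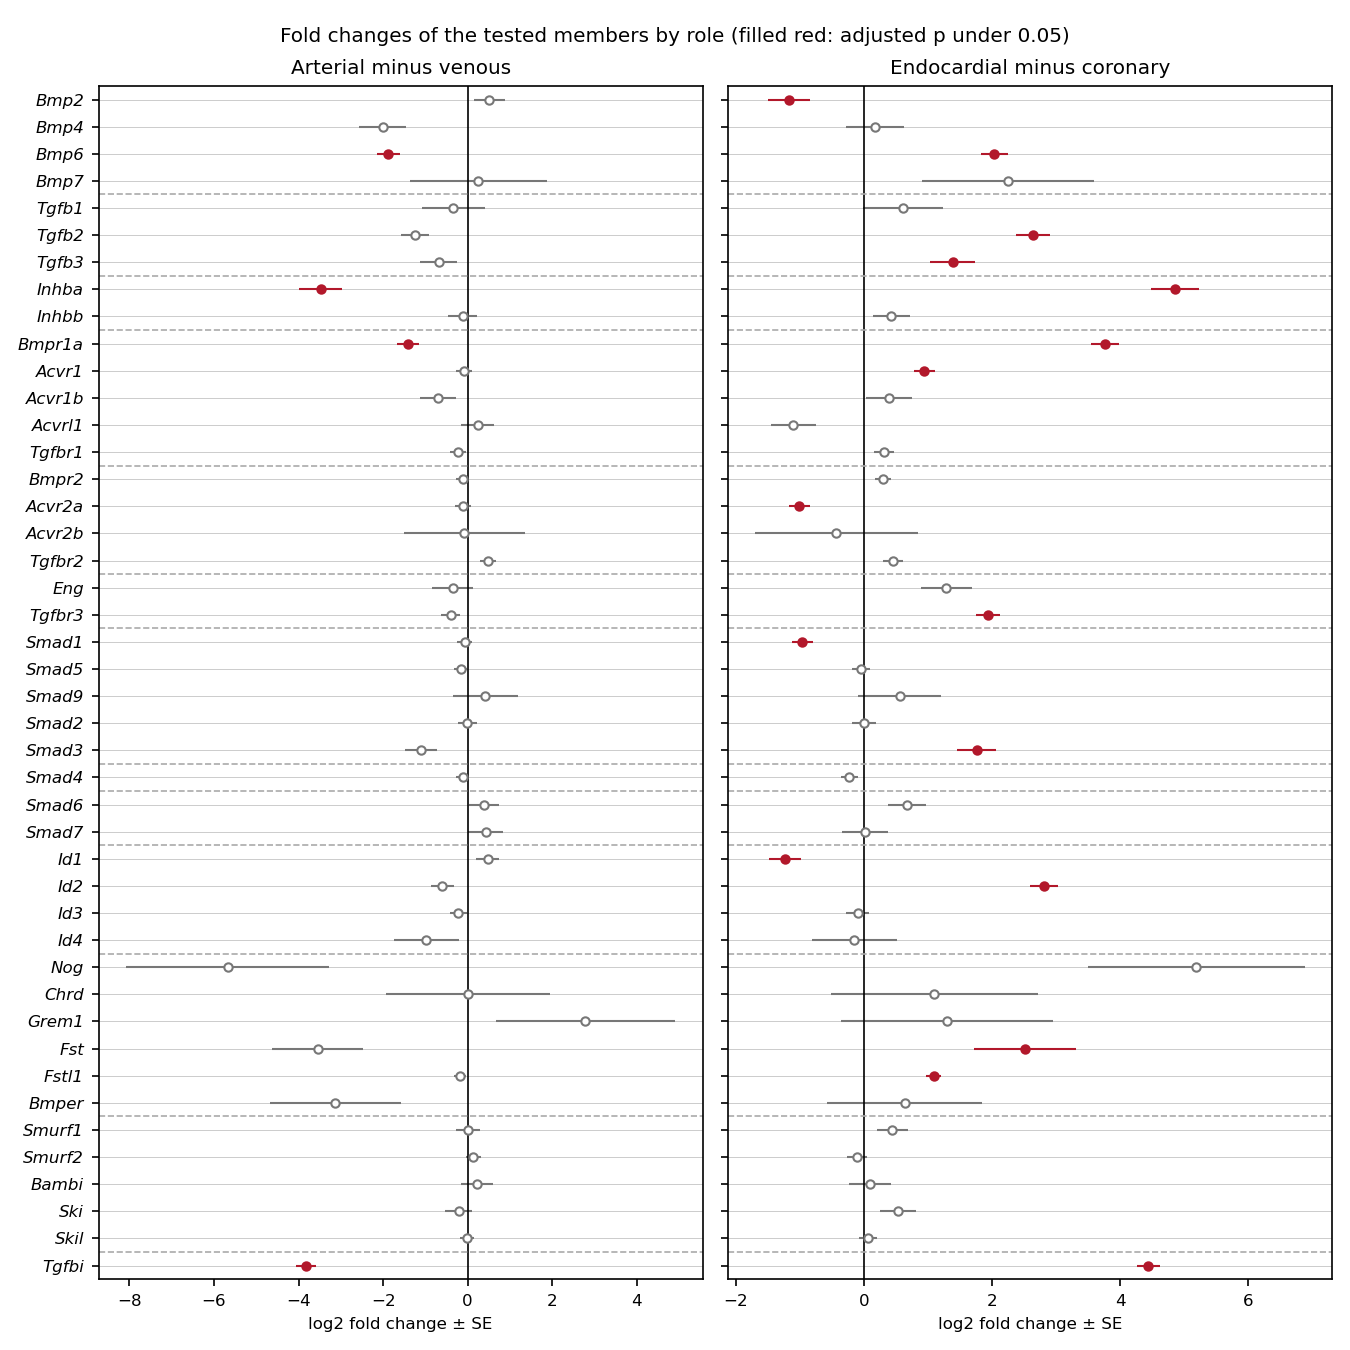
Log2 fold change with its SE (horizontal axes) for the 44 tested members, ordered by role with dashed lines between roles, for arterial minus venous (left) and endocardial minus coronary libraries (right). Filled red points have an adjusted p under 0.05, which holds for 4 members on the left, all below 0, and for 16 on the right, 12 above and 4 below 0.

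The sequences upstream of the RefSeq start sites are shown for members that were lower in arterial than in venous libraries. Each stretch runs from 250 bases before the start up to the first base inside any annotated exon, and later bases are left out. Short stretches are not shown, so Bmp6 has none. The Bmpr1a stretch is upstream of a RefSeq start but lies inside the gene as placed by GENCODE M21 (34410734 to 34503341). The stretches are chr13:56609336-56609522 (plus strand, 187 bases), chr13:16011601-16011850 (plus strand, 250 bases) and chr14:34502688-34502796 (minus strand, 109 bases) of GRCm38.p6, written 5′ to 3′ with the GC-rich motif GGCGCC, to which BMP Smads are known to bind, in capitals.
Tgfbi: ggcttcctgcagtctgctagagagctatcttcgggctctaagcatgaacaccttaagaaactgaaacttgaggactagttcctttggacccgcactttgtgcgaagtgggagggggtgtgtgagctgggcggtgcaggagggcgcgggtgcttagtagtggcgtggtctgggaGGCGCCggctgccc
Inhba: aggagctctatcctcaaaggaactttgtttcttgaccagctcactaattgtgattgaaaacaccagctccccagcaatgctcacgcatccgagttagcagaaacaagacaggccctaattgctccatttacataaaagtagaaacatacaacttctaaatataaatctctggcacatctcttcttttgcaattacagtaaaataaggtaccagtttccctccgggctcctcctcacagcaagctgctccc
Bmpr1a: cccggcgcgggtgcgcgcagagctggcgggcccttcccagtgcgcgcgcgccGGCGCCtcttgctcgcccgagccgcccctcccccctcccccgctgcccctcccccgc
Beside GGCGCC, a Smad-binding core (GTCTAG) and the Smad3-binding box (CAGACA) were searched on both strands of the windows from 250 bases before to 50 bases after the start. None of the 4 genes held more than 1 of these motifs in its window. GGCGCC was present in 11.9%, GTCTAG in 8.37% and CAGACA in 21% of all 32851 promoter windows. The 34 members with a window had 39 windows. Of these 34, 13 held GGCGCC, 4 held GTCTAG and 7 held CAGACA in at least 1 window. These are counts of genes, while the percentages are of windows, so they are not on the same scale. Tgfbi held GGCGCC from base -77 to -72 and Bmpr1a from -198 to -193, counted from the start, and neither the window of Inhba nor that of Bmp6 held any of the 3. Among the other members called higher in endocardial than in coronary libraries, Id2 held GGCGCC (-231 to -226), Fstl1 GTCTAG (-186 to -181) and Tgfb2 CAGACA (-204 to -199). The remaining members with GGCGCC were not called higher in that comparison. The 3 upstream stretches differed in base composition, with 59.4% G or C for Tgfbi, 43.2% for Inhba and 84.4% for Bmpr1a, against a median of 52.4% over all 250-base upstream windows.

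Tgfbi encodes a secreted matrix protein that is induced by TGF-beta. Its gene lies on chromosome 13, 56609523 to 56639562, plus strand (GRCm38, GENCODE M21). It stood at 2.21, 2.25 and 1.47 CPM in the arterial, 30.6, 30.4 and 23.2 in the venous and 155, 172 and 161 in the endocardial libraries. No library of a population overlapped those of another. Endocardial libraries exceeded the coronary mean 21.7-fold (log2 fold change 4.44 ± 0.18, adjusted p = 8.35e-11), the venous libraries 5.78-fold (log2 fold change 2.53 ± 0.21, adjusted p = 5.9e-07) and the arterial ones 81.5-fold (log2 fold change 6.35 ± 0.26, adjusted p = 2.11e-10). Arterial libraries were 14.1-fold below venous ones (log2 fold change -3.82 ± 0.24, adjusted p = 1.42e-07).

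Among the activin genes, Inhba (chromosome 13, 16011851 to 16031621, plus strand) encodes the beta A subunit, which forms activin A. Its level was 1.03, 1.27 and 0.0735 CPM in the arterial, 8.10, 9.01 and 10.2 in the venous and 61.9, 95.9 and 79.5 in the endocardial libraries. The populations again did not overlap, and arterial replicate 3 had a single count. The endocardial rise over the coronary mean was 29.0-fold (log2 fold change 4.86 ± 0.38, adjusted p = 1.5e-06). In arterial libraries Inhba was 11.2-fold below its venous level (log2 fold change -3.48 ± 0.51, adjusted p = 0.00374), and the log2 fold change was -4.07 without arterial replicate 2. Inhbb, the gene of the beta B subunit, had 9.01 ± 0.460 CPM in the arterial, 9.74 ± 0.851 in the venous and 12.6 ± 0.241 in the endocardial libraries (SD, n = 3) and was called in no comparison (adjusted p from 0.426 to 0.983).

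The BMP ligand genes went in different directions. Bmp6 (chromosome 13, 38345107 to 38500302, plus strand) had 6.85, 9.45 and 7.21 CPM in the arterial, 21.7, 31.5 and 33.5 in the venous and 45.1, 69.1 and 71.4 in the endocardial libraries. Levels followed the order arterial, venous, endocardial without overlap. Bmp6 was 4.11-fold higher in endocardial than in coronary libraries (log2 fold change 2.04 ± 0.22, adjusted p = 4.43e-06) and 3.68-fold lower in arterial than in venous ones (log2 fold change -1.88 ± 0.27, adjusted p = 0.00126). Its rise over the venous libraries alone was 2.14-fold (adjusted p = 0.0111), and that call ended without endocardial replicate 2 (0.0684), endocardial replicate 3 (0.0579) or venous replicate 1 (0.0754), within 0.00155 to 0.0754 over 15 alternatives. Exons of Bmp6 overlap those of Txndc5 on the other strand. Txndc5 had a log2 fold change of 1.29 in endocardial against coronary libraries (adjusted p = 0.00445) and of -0.50 in arterial against venous ones (adjusted p = 0.788). As no source used here gives the strandedness of the counts, reads of the shared bases cannot be assigned to either gene.

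Bmp2, a ligand known for cushion formation in the early heart, was lower in endocardial libraries. Its level was 37.6, 14.3 and 25.1 CPM in the arterial, 22.3, 14.4 and 17.2 in the venous and 11.7, 9.51 and 7.33 in the endocardial libraries. All endocardial libraries lay below all coronary ones, at 2.26-fold below the coronary mean (log2 fold change -1.18 ± 0.33, adjusted p = 0.0227). The call ended without arterial replicate 1 (0.0534), endocardial replicate 2 (0.0592) or endocardial replicate 3 (0.0976), within 0.00313 to 0.0976 over 14 alternatives. Bmp4 had 5.31, 3.92 and 0.809 CPM in arterial and 14.3, 11.8 and 14.5 in venous libraries. These libraries did not overlap, but the difference missed the threshold (log2 fold change -2.01 ± 0.55, adjusted p = 0.132); it passed with DESeq2 (adjusted p = 0.0204) and without a filter on low counts (0.0138). Endocardial libraries had 6.95, 7.28 and 8.48 CPM of Bmp4. Bmp7 stayed at or below 6.04 CPM in every library, with that value in endocardial replicate 1. Bmp5 and Bmp10, a ligand known from trabecular heart muscle, reached 1.92 and 1.47 CPM in arterial replicate 1 and had no count in endocardial libraries.

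Tgfb2 was the TGF-beta gene with the largest endocardial fold. Tgfb2 (chromosome 1, 186622792 to 186705989, minus strand) stood at 6.85, 9.68 and 12.3 CPM in the arterial, 36.1, 15.2 and 17.3 in the venous and 74.1, 87.9 and 116 in the endocardial libraries. The endocardial libraries were all above the coronary ones, and venous replicate 1 was the highest coronary library. The rise was 6.24-fold over the coronary mean (log2 fold change 2.64 ± 0.27, adjusted p = 5.64e-06). Arterial libraries lay below all venous ones, but the difference was not called (log2 fold change -1.25 ± 0.33, adjusted p = 0.129). It passed with DESeq2 (0.0334), without a filter on low counts (0.000276) and without venous replicate 2 (0.0283).

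For Tgfb3 the values were 5.45, 3.51 and 4.71 CPM in the arterial, 7.75, 8.15 and 6.14 in the venous and 9.17, 21.8 and 14.3 in the endocardial libraries. The endocardial range started just above the coronary one, and the rise was 2.61-fold (log2 fold change 1.38 ± 0.35, adjusted p = 0.0131). Without endocardial replicate 2 its adjusted p was 0.181, within 0.00228 to 0.181 over 14 alternatives. Tgfb1, the isoform best known from platelets and immune cells, had 10.3, 41.0 and 33.6 CPM in the arterial, 20.4, 51.9 and 35.2 in the venous and 15.2, 44.3 and 86.2 in the endocardial libraries. Replicate 1 was the lowest library in each population, the ranges overlapped, and Tgfb1 was not called in any comparison (adjusted p = 0.652 for endocardial against coronary).

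**Figure D2:**
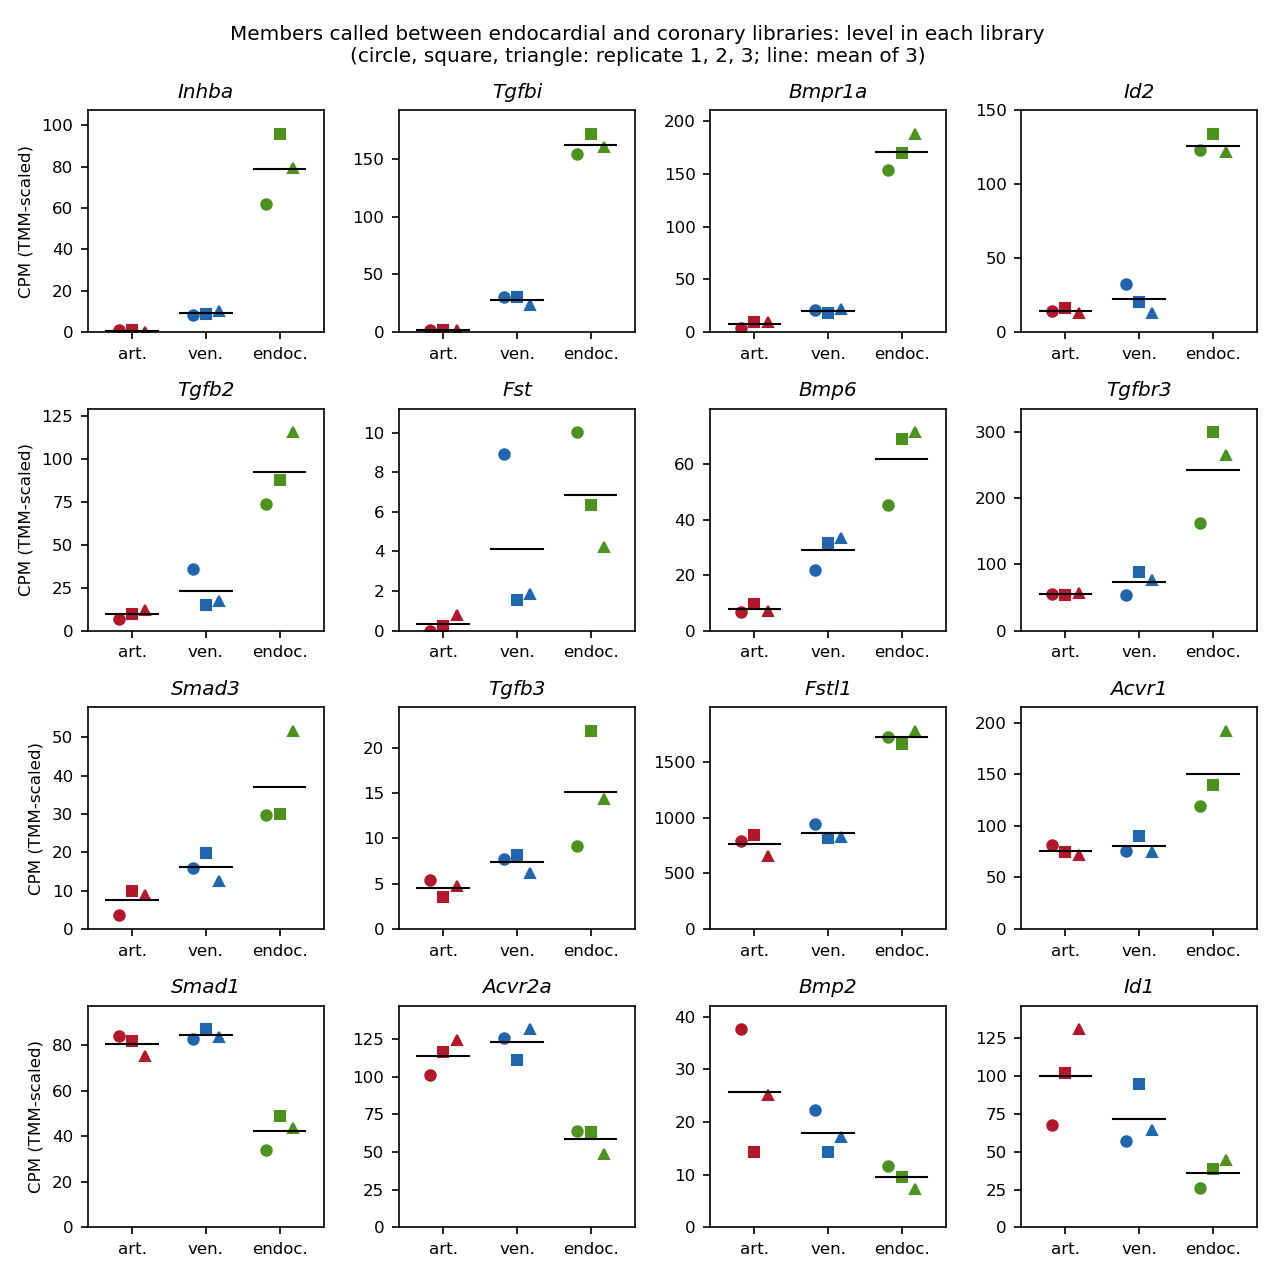
CPM in each library (vertical axes, starting at 0) for the 16 members called between endocardial and coronary libraries, by population (arterial red, venous blue, endocardial green), with a line at the mean of 3 libraries. Panels run from the largest rise (Inhba) to the largest fall (Id1), and for all of these genes but Fst the endocardial libraries lie apart from all coronary ones.

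Among type I receptors, the BMP receptor gene Bmpr1a (ALK3) had the largest endocardial fold. Bmpr1a (chromosome 14, 34410734 to 34503341, minus strand) stood at 3.98, 9.56 and 9.49 CPM in the arterial, 21.3, 18.03 and 22.1 in the venous and 154, 169.7 and 188 in the endocardial libraries. Each population was separate from the others, and the endocardial level was 13.6-fold the coronary one (log2 fold change 3.76 ± 0.22, adjusted p = 3.68e-09). Against venous libraries alone the fold was 8.32 (adjusted p = 1.43e-06). Arterial libraries were 2.66-fold below venous ones (log2 fold change -1.41 ± 0.27, adjusted p = 0.0133), and this call ended when only the libraries of these 2 populations were fitted (0.112, within 5.96e-07 to 0.112 over 15 alternatives). The antisense gene Gm17110, which overlaps an exon of Bmpr1a, had no count in any library.

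Acvr1 (ALK2), another BMP type I receptor gene, stood at 81.7, 74.4 and 71.5 CPM in the arterial, 76.1, 90.3 and 75.2 in the venous and 119, 139.7 and 192 in the endocardial libraries. The endocardial libraries were higher without overlap, by 1.92-fold (log2 fold change 0.94 ± 0.16, adjusted p = 0.000608). Acvrl1 (ALK1), the receptor of BMP9 and BMP10 in endothelium, had its lowest mean in endocardial libraries. Its values were 36.6, 104 and 61.5 CPM in the arterial, 34.8, 69.3 and 68.2 in the venous and 21.2, 36.8 and 28.9 in the endocardial libraries. Replicate 1 was the lowest library in each population, and endocardial and coronary ranges overlapped. The difference between endocardial and coronary libraries missed the threshold (log2 fold change -1.11 ± 0.35, adjusted p = 0.0618), while with the replicate number as a block the adjusted p was 0.000544, and with DESeq2 0.00851. The TGF-beta type I receptor gene Tgfbr1 (ALK5) had 92.7 ± 16.3 CPM in the arterial, 108 ± 11.7 in the venous and 124 ± 12.4 in the endocardial libraries (SD, n = 3), and the activin type I receptor gene Acvr1b 5.73 to 25.1 CPM over all libraries. Neither was called, at adjusted p of 0.249 and 0.594 for endocardial against coronary libraries, but Acvr1b passed against arterial libraries without endocardial replicate 1 (0.0271). Bmpr1b had 1.22 CPM in endocardial replicate 1, 0.475 in endocardial replicate 3 and 0.147 in arterial replicate 3, with no count in the other libraries.

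Among the type II receptors, Acvr2a, encoding an activin and BMP type II receptor, stood at 101, 116 and 124 CPM in the arterial, 126, 111 and 131 in the venous and 63.9, 63.4 and 48.5 in the endocardial libraries. All endocardial libraries lay below all coronary ones, at 2.02-fold lower (log2 fold change -1.01 ± 0.16, adjusted p = 0.000298). Exons of Acvr2a overlap those of Orc4 on the other strand, whose log2 fold change was 0.02 (adjusted p = 0.973). Bmpr2, the BMP type II receptor gene, had 736 ± 24.2 CPM in the arterial, 799 ± 22.5 in the venous and 941 ± 152 in the endocardial libraries (SD, n = 3) and was not called (adjusted p = 0.143). Tgfbr2, the TGF-beta type II receptor gene, had 259, 304 and 291 CPM in the arterial, 197, 208 and 208 in the venous and 246, 325 and 418 in the endocardial libraries. The endocardial libraries were above all venous ones (log2 fold change 0.69 ± 0.18, adjusted p = 0.0203) but overlapped the arterial ones, and the difference from the coronary mean missed the threshold (adjusted p = 0.0628; 0.0372 with the replicate block). It passed without endocardial replicate 1 (0.00602), with RLE size factors (0.0479) and with DESeq2 (0.0347). The call against venous libraries ended without endocardial replicates 2 or 3 or any single venous replicate, at 0.0651 to 0.157. Acvr2b had 0.306, 0 and 11.4 CPM in endocardial libraries, so that nearly all its endocardial counts came from replicate 3, and 2.58 to 6.79 CPM in coronary ones (adjusted p = 0.901; 0.00562 without endocardial replicate 3).

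Both co-receptor genes were highest in endocardial libraries by their means. Tgfbr3 (betaglycan), which presents TGF-beta2 to its receptors, had 55.2, 53.9 and 56.8 CPM in the arterial, 54.1, 88.7 and 77.0 in the venous and 163, 299.7 and 265 in the endocardial libraries. The endocardial libraries did not overlap the others and were 3.81-fold higher (log2 fold change 1.93 ± 0.19, adjusted p = 1.52e-06). Eng (endoglin), the co-receptor of Acvrl1, had 126, 277 and 260.4 CPM in the arterial, 196, 386 and 267 in the venous and 291, 701 and 835 in the endocardial libraries. Replicate 1 was again the lowest library of each population, and endocardial replicate 1 fell below venous replicate 2. The ratio of Eng to the coronary mean was 2.43 and missed the threshold (log2 fold change 1.28 ± 0.40, adjusted p = 0.0845). With the replicate block the adjusted p was 7.06e-06, with DESeq2 0.000424 and without endocardial replicate 1 0.0157. Against arterial libraries alone it went from 0.119 to 0.0234 without that library.

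Among the receptor Smad genes, Smad1 and Smad3 were called, in opposite directions. Smad1, of the BMP branch, stood at 83.9, 81.6 and 75.4 CPM in the arterial, 82.6, 86.9 and 83.6 in the venous and 34.1, 48.9 and 43.7 in the endocardial libraries. Endocardial libraries were 1.95-fold lower without overlap (log2 fold change -0.96 ± 0.17, adjusted p = 0.000658). Smad3, of the TGF-beta and activin branch, stood at 3.61, 9.85 and 8.90 CPM in the arterial, 15.9, 19.8 and 12.5 in the venous and 29.6, 30.1 and 51.6 in the endocardial libraries. It was 3.39-fold higher in endocardial libraries, again without overlap (log2 fold change 1.76 ± 0.31, adjusted p = 0.000631). Against venous libraries alone Smad3 had an adjusted p of 0.049, and that call ended without arterial replicate 3 (0.0603), endocardial replicates 2 (0.0657) or 3 (0.236), or venous replicates 1 (0.127), 2 (0.0612) or 3 (0.212). In the arterial to venous comparison the arterial libraries were all lower but Smad3 was not called (log2 fold change -1.10 ± 0.38, adjusted p = 0.325). The other receptor Smads of the 2 branches, Smad5 and Smad2, had log2 fold changes of -0.05 and 0.00 in endocardial against coronary libraries (SE 0.14 and 0.19). Smad9 was low, at 1.95 to 9.93 CPM across the libraries, and was not called.

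Smad4, the common partner of both branches, had 148 ± 5.87 CPM in the arterial, 161 ± 10.5 in the venous and 132 ± 7.34 in the endocardial libraries (SD, n = 3) and was not called (adjusted p = 0.327). The inhibitory Smad genes Smad6 and Smad7, which BMP and TGF-beta signalling are known to induce, were not called either. Smad6 had 19.2, 31.6 and 29.5 CPM in the arterial, 12.7, 32.2 and 16.5 in the venous and 24.0, 46.8 and 41.3 in the endocardial libraries, with replicate 1 lowest and replicate 2 highest in each population (log2 fold change 0.67 ± 0.30, adjusted p = 0.173; adjusted p = 0.036 with the replicate block). Smad7 had 70.7 ± 21.3 CPM in the arterial, 52.8 ± 24.4 in the venous and 61.8 ± 27.3 in the endocardial libraries (SD, n = 3) (adjusted p = 0.988).

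Id genes encode helix-loop-helix proteins without a DNA-binding region that block other such factors, and they are known as BMP targets. Id2 (chromosome 12, 25093799 to 25097140, minus strand) stood at 14.5, 16.4 and 12.9 CPM in the arterial, 32.7, 20.6 and 13.1 in the venous and 123, 134 and 122 in the endocardial libraries. Endocardial libraries were close to each other and 7.03-fold above the coronary mean (log2 fold change 2.81 ± 0.22, adjusted p = 1.34e-07). Id1 went the opposite way, with 67.5, 102 and 131 CPM in the arterial, 56.8, 94.8 and 64.5 in the venous and 25.8, 38.6 and 44.3 in the endocardial libraries. Here the endocardial libraries lay below all coronary ones, 2.34-fold under their mean (log2 fold change -1.23 ± 0.25, adjusted p = 0.00291). Against venous libraries alone Id1 had an adjusted p of 0.0318, which rose above the threshold without endocardial replicates 1 (0.0814) or 2 (0.0817) or venous replicate 2 (0.148), within 0.00016 to 0.148 over 15 alternatives. Id3 was the most abundant Id gene in each population and was not called, at 385 ± 11.1 CPM in the arterial, 448 ± 109 in the venous and 388 ± 105 in the endocardial libraries (SD, n = 3) (adjusted p = 0.824). Id4 ranged from 0.950 to 9.46 CPM.

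Secreted antagonists and modulators were low apart from Fstl1. Fstl1 encodes a follistatin-like glycoprotein known to bind BMPs and Tgfb1. Its level was 787, 843 and 659 CPM in the arterial, 941, 817 and 831 in the venous and 1727, 1660.1 and 1780.3 in the endocardial libraries. The endocardial libraries were close together and 2.12-fold higher (log2 fold change 1.09 ± 0.12, adjusted p = 5.05e-06). Fst (follistatin), which neutralises activins, had 0, 0.230 and 0.809 CPM in the arterial, 8.93, 1.54 and 1.84 in the venous and 10.01, 6.34 and 4.21 in the endocardial libraries. The rise over coronary libraries was 5.70-fold with overlap, since venous replicate 1 lay within the endocardial range (log2 fold change 2.51 ± 0.80, adjusted p = 0.0459). That call ended in each fit without 1 library except those without arterial replicate 3 or venous replicate 1, at 0.0505 (without arterial replicate 1) to 0.146 (without endocardial replicate 1). The log2 fold change was 3.21 without arterial replicate 3 and 3.14 without venous replicate 1.

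The BMP antagonist gene Nog (noggin) had no count in the arterial libraries, where 3 counts correspond to 0.173 to 0.221 CPM. It had 0.946, 0.123 and 0.154 CPM in venous and 2.60, 0.0721 and 3.66 in endocardial libraries and was not called (adjusted p = 0.0564; 0.0115 with DESeq2 and 0.0398 without endocardial replicate 2). Chrd (chordin) stayed at or below 1.83 CPM and Bmper at or below 5.87 CPM. Bmper passed only against arterial libraries without arterial replicate 1 (0.0243), which held all its arterial counts. Grem1 (gremlin), another BMP antagonist, varied within populations, with 17.0, 0.634 and 13.5 CPM in the arterial, 4.32, 0.185 and 0 in the venous and 25.0, 3.82 and 0.407 in the endocardial libraries. Replicate 1 was the highest library in each, and no comparison of Grem1 was called (adjusted p = 0.729 for endocardial against coronary).

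None of the 5 intracellular and membrane inhibitors was called in any comparison. The ubiquitin ligase genes Smurf1 and Smurf2 had log2 fold changes of 0.44 ± 0.24 and -0.11 ± 0.16 in endocardial against coronary libraries, and Smurf1 passed without endocardial replicate 1 (0.0276). Bambi, a pseudoreceptor gene, had 0.09 ± 0.33, and the Smad co-repressor gene Skil 0.06 ± 0.14. The other co-repressor gene, Ski, had 81.5, 126 and 151 CPM in the arterial, 113, 160.0 and 143 in the venous and 97.6, 228 and 233 in the endocardial libraries. Replicate 1 was the lowest library of Ski in each population, and its log2 fold change was 0.53 ± 0.28 (adjusted p = 0.282; 0.0499 with the replicate block and 0.00552 without endocardial replicate 1). Without that library Ski also passed against arterial (0.00706, from 0.307) and venous libraries (0.045, from 0.519).

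Levels of different genes were compared per kb of merged exons, on the scale of CPM per kb. Fstl1 was the most abundant member in endocardial libraries at 351, and Id3 in arterial (215) and venous libraries (250.2). Among type I receptors the highest level was that of Acvrl1 in arterial libraries (15.8, with Acvr1 at 15.7 and Tgfbr1 at 14.2), of Acvr1 in venous ones (16.7, with Tgfbr1 at 16.6) and of Acvr1 in endocardial ones (31.1). Bmpr1a moved from the fifth place among type I receptors in arterial libraries (1.21) to the second in endocardial ones (26.8), and Acvrl1 stood at 6.79, in the fourth place. Per kb of the longest transcript Acvr1 was above Acvrl1 in arterial libraries too (23.0 against 18.5). Bmpr2 was the most abundant type II receptor gene, at 40.9, 44.5 and 52.3 in arterial, venous and endocardial libraries. Among BMP ligands Bmp2 was highest in arterial libraries (7.22, with Bmp6 at 2.01), and Bmp6 in venous (7.41) and endocardial libraries (15.9, with Bmp2 at 2.68). Tgfb2 and Tgfb1 stood at 16.0 and 9.63 in endocardial libraries, and at 1.66 and 5.61 in arterial ones. Per kb of the longest transcript the endocardial order turned, with Tgfb1 at 18.9 and Tgfb2 at 18.1. Smad5 was the most abundant receptor Smad gene throughout, at 25.1, 28.2 and 25.7. These orders are descriptions of means and were not tested.

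**Figure D3:**
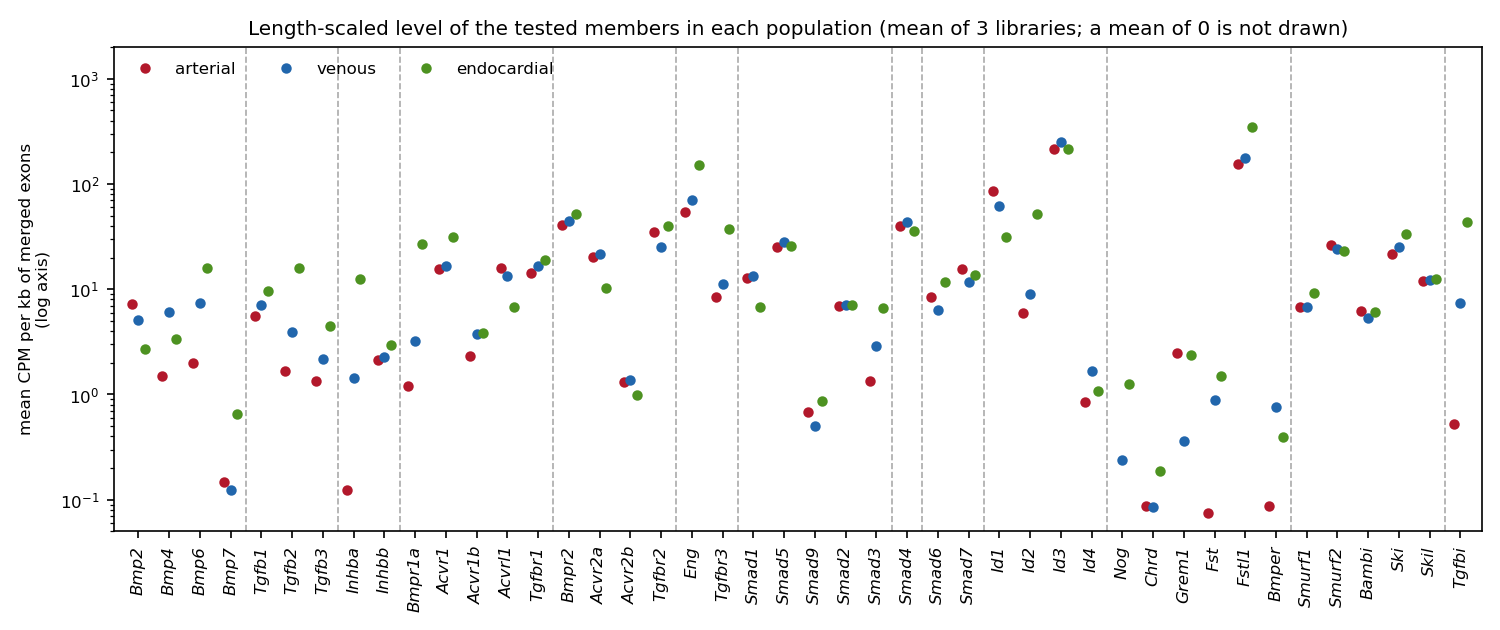
Mean level per kb of merged exons (vertical axis, CPM per kb, log scale) of the 44 tested members, by role, in arterial (red), venous (blue) and endocardial (green) libraries, as the mean of 3 libraries. Fstl1, Id3 and Eng stand highest in endocardial libraries, while Nog, with no count in arterial libraries, has no arterial point.

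Markers of other cell types also differed between the populations. In endocardial against venous libraries 4 fibroblast markers were higher and 2 lower. The collagen gene Col1a1 had 149 ± 27.5 CPM in venous and 26.7 ± 8.98 in endocardial libraries. Pdgfra went the other way, at 32.4 ± 6.79 CPM in venous and 112 ± 10.2 in endocardial libraries. In arterial libraries it had 2.97 ± 0.447 CPM, so its means had the same order as those of Tgfbi, Inhba, Bmp6 and Bmpr1a. Dpep1 was at 0 in arterial and Fap in endocardial libraries. Of the 8 endocardial markers, 4 were lower in arterial than in venous libraries, among them Cdh11 at 7.33 ± 2.03 against 49.7 ± 16.9 CPM. The part of endocardial cells in the venous levels of Tgfbi, Inhba, Bmp6 and Bmpr1a was not tested. In these bulk libraries fewer cells of a type and less RNA per cell cannot be told apart.

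Cardiomyocyte markers summed to 281 to 409 CPM in the arterial, 417 to 583 in the venous and 522 to 629 in the endocardial libraries, and 3 of 11 tested were higher in endocardial than in coronary libraries. Mural markers, of which Abcc9 was the highest, ran from 536 to 844, 233 to 342 and 84.7 to 147 CPM, and epicardial markers, of which Wt1 was the highest, from 183 to 211, 156 to 185 and 25.5 to 33.1. Most single epicardial markers did not follow the order of these sums. Of 6 tested, 4 had a negative log2 fold change in arterial against venous libraries. In endocardial against arterial libraries 4 of the 6 had a positive one. The 7 erythroid and platelet markers, of which Hbb-bs was the highest, summed to 462 to 1058 CPM in the arterial, 199 to 335 in the venous and 74.1 to 211 in the endocardial libraries, although the gate was Ter119-negative. The 8 leukocyte markers summed to 5.36 to 11.5 CPM over all libraries. The sum of the 5 lymphatic endothelial markers was highest in endocardial libraries, at 656 to 757 CPM against 84.5 to 204.8 in coronary ones. Of the 5, 3 were called higher than in coronary libraries. Flt4 was not higher, with means of 86.6 CPM in the arterial, 118 in the venous and 86.4 in the endocardial libraries. The part of these cells in the results was not tested.

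**Figure D4:**
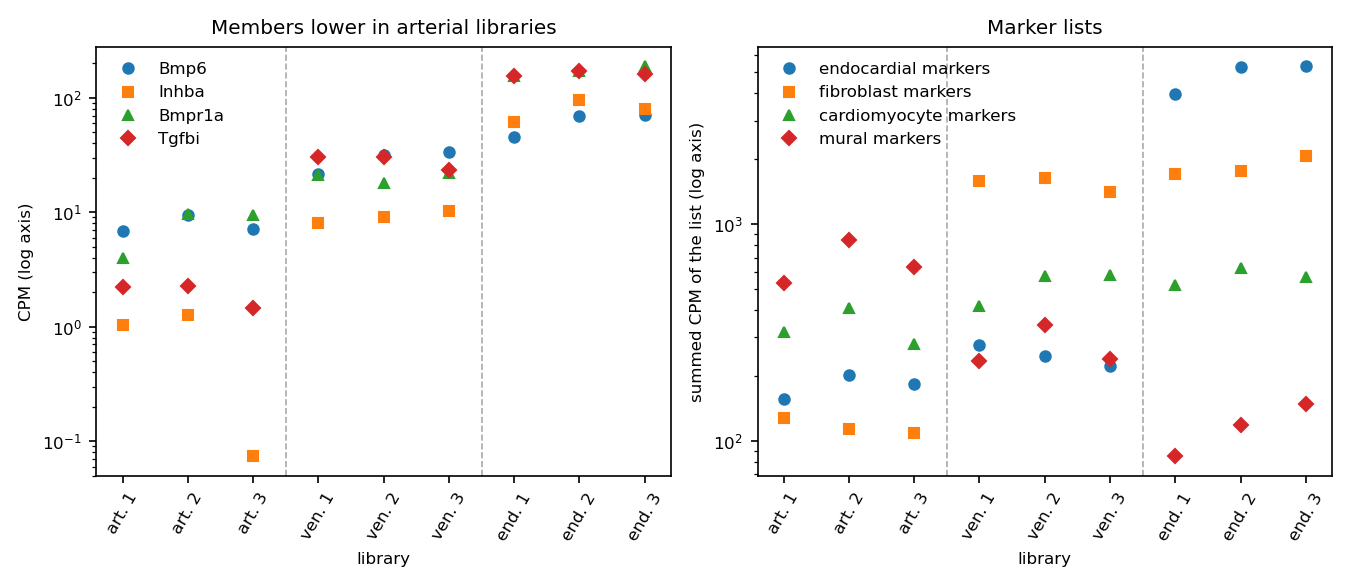
CPM of the 4 members lower in arterial than in venous libraries (left) and summed CPM of 4 marker lists (right), both on log axes, for each of the 9 libraries (art., arterial; ven., venous; end., endocardial). Fibroblast markers stand at 109 to 127 CPM in arterial and at 1404 to 2049 CPM in the other libraries, and the 4 members also rise from arterial to venous libraries.

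A further 99 genes of the pathway, from a list of 101 written by hand, were followed as context, and 79 were tested. In endocardial against coronary libraries 20 were higher, 7 lower and 52 not called, which is 34.2% called against 13.9% of all genes. In arterial against venous libraries 1 was higher and 3 lower, or 5.06% against 1.07%. The counts by group that follow stand beside 6.91% of all genes higher and 7.00% lower in endocardial libraries. Genes of TGF-beta latency and activation had 7 of 13 higher and none lower in endocardial libraries. They included Ltbp1 and Ltbp3, which encode proteins that hold latent TGF-beta in the matrix, at 3.68-fold (adjusted p = 4.44e-06) and 7.18-fold (adjusted p = 2.12e-05). The fibrillin gene Fbn1, whose protein binds these, was 2.72-fold higher (adjusted p = 5.22e-06). Thbs1, encoding thrombospondin 1, an activator of latent TGF-beta, had 13.6, 6.74 and 6.03 CPM in the arterial, 86.8, 68.5 and 58.6 in the venous and 84.7, 83.8 and 110.2 in the endocardial libraries. It was lower in arterial than in venous libraries (log2 fold change -3.02 ± 0.30, adjusted p = 3.35e-05).

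Other secreted antagonists and modulators had 5 of 8 tested higher in endocardial libraries and none lower. Among them were Bgn (biglycan), which binds TGF-beta, at 11.1-fold (log2 fold change 3.47 ± 0.18, adjusted p = 1.7e-09), and Twsg1, a BMP-binding protein gene, at 1.91-fold (adjusted p = 0.000331). A further one, Dcn (decorin), which is also a fibroblast marker, lost its call with the replicate block (adjusted p = 0.0246 without and 0.0843 with it). Arterial libraries had less Bgn than venous ones (log2 fold change -2.31 ± 0.23, adjusted p = 3.35e-05). Known target genes went both ways, with 6 of 20 higher and 5 lower. Smoc1, encoding a secreted matrix protein that modulates BMP signalling, had 0.663, 1.04 and 0.515 CPM in the arterial, 2.37, 2.28 and 1.95 in the venous and 89.8, 156 and 171 in the endocardial libraries. It showed a 108-fold endocardial rise (log2 fold change 6.75 ± 0.25, adjusted p = 4.06e-11). The matrix gene Fn1 (fibronectin) was 5.62-fold and the protease gene Prss23 6.55-fold higher (adjusted p = 4.68e-08 and 8.46e-06).

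Hey1, a Notch and BMP target that is also an arterial marker, was 3.04-fold lower in endocardial than in coronary libraries (log2 fold change -1.60 ± 0.21, adjusted p = 3.63e-05) and 3.04-fold higher in arterial than in venous ones (adjusted p = 0.00101). Msx1 and Snai2, transcription factor genes known from cushion formation, were 3.48-fold and 2.90-fold lower in endocardial libraries (adjusted p = 0.00161 and 0.000386). The endothelial Acvrl1 target gene Tmem100 went up 4.85-fold (adjusted p = 0.000642), at 5.60, 13.02 and 10.5 CPM in the arterial, 3.02, 9.63 and 7.12 in the venous and 29.1, 26.2 and 61.3 in the endocardial libraries. Fkbp1a, whose protein FKBP12 holds type I receptors inactive, was 2.47-fold lower (log2 fold change -1.31 ± 0.14, adjusted p = 4.78e-06). Of the 13 further ligand genes tested, none was called in any comparison.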

How the data were processed

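The deposited values are expected counts per gene, which the authors made with RSEM 1.2.3 after CASAVA 1.8.2 and cutadapt 1.3 on GRCm38, per the submitters' processing notes, with Ensembl release 76 read from the name of the deposited table. The aligner was not given in the sources used here, nor was the strandedness. Counts were rounded, since 45.5% of values above 0 were not whole. The test was that of edgeR 4.0.16 (R 4.3.3; TMM, minimum count 10, robust quasi-likelihood F test) in 1 fit of all 9 libraries, which kept 17103 genes. Coronary stands for the average of both coronary populations in log2 units. The SE is the log2 fold change over the root of F. Positions and exon lengths come from GENCODE M21, and promoters from RefSeq.

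Members and lists were chosen with earlier results of these data known. Members called in the arterial to venous or the endocardial to coronary comparison are given per library, and of the further pathway genes those with the smallest p among called ones are named, plus Msx1 and Tmem100, which were chosen after their values were seen. The labels give each replicate number as a batch, so that equal numbers share a batch. Deviations from the population means correlated at -0.09 to 0.165 between libraries of the same number. The fit was tested on simulated data. Alternatives were DESeq2 1.42.0, RLE size factors, unrounded counts, no filter, only the groups compared, the replicate block and each library left out.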

Additional observations from a re-analysis of the deposited data

How the results depend on the processing

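The counts of members called were 4 (4 to 5 with 1 library left out) for arterial against venous, 16 (14 to 19) for endocardial against coronary, 16 (14 to 19) for endocardial against arterial and 14 (10 to 14) for endocardial against venous libraries. All genes called numbered 183 (120 to 225), 2379 (1805 to 2493), 1996 (1507 to 2251) and 1753 (1130 to 1871) in the same order, where 120 is the value without venous replicate 1 and 1130 that without venous replicate 3. For arterial against venous, DESeq2 called 7 members and 405 genes, and a fit without a filter on low counts 7 members and 439 genes. The 3 added members were Bmp4, Fst and Tgfb2 in both. With the replicate block the members called were 4, 21, 19 and 17 in the same order, and the genes called 225, 2722, 2312 and 2097. The block ended no call of a member and added only those of Acvrl1, Eng, Ski, Smad6 and Tgfbr2. Over 61 fold changes of members called with or without the block, all 894 alternative values kept the direction. Of these, 35 missed the threshold where the reported value passed it and 34 passed it where the reported value did not. With the longest transcript as length, the highest member of a role in a population was the same in 30 of 33 cases. It changed for type I receptors in arterial libraries (Acvr1 over Acvrl1), TGF-beta ligands in endocardial ones (Tgfb1 over Tgfb2) and inhibitors in venous ones (Smurf2 over Ski). Of the 79 further pathway genes tested, 4, 27, 24 and 19 were called in the same order of comparisons. Beside these stand 1.07%, 13.9%, 11.7% and 10.2% of all genes. Summed over the 4 comparisons, where a gene can count more than once, these calls numbered 74 (59 to 79 with 1 library left out).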

Other observations

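Several members followed the replicate number across the 3 populations. Of the 44 tested members, 9 had their lowest level in replicate 1 of every population (20.5%), against 8.05% of all genes tested. They were Acvrl1, Bmp6, Eng, Id1, Ski, Smad6, Smad7, Tgfb1 and Tgfbr2. Bambi, Bmp2, Grem1, Id4 and Smad4 had their highest level in replicate 1 of every population (11.4%, against 7.31% of all genes). For replicate 2 the lowest level in all populations was that of Bambi and Smad4, and for replicate 3 that of Id2. The labels number the batches as the replicates, and what differed between the batches is not given.

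Overlapping transcription limits a few members. Beside Txndc5, Orc4 and Gm17110, exons of Eng overlap those of Fpgs, which had at most 300 counts in a library against 12299 for Eng.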
